A study of Mus musculus with 6 samples.

Results

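The genes described here are 6 predicted mouse genes that resemble the translation initiation factor gene Eif1a, set beside 3 established genes of the family. The 6 Eif1a-like genes are Gm8300, Gm4027, BB287469, Gm2016, Gm2022 and Gm5662, and the 3 established genes are Eif1a, Eif1ax and Eif1ad. They were taken by symbol, and all 9 were found among the 55549 rows of each table. The genes were chosen with their difference between the treated and untreated libraries already known, so their own values are given as a description, without a test.

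The study sequenced polyadenylated RNA of early 2-cell mouse embryos, with 3 control libraries and 3 libraries of embryos exposed to ethylparaben (EtP), an ester of parahydroxybenzoic acid used as a preservative. EtP was present at 40 µM in the culture medium from 4 hours after fertilization, and most exposed embryos stopped at the early 2-cell stage, per the series' design text. No strain, genotype, vehicle or collection hour is given for either group, so the exposure and the age of the embryos within the 2-cell stage cannot be told apart. The sources do not state whether replicates were separate cultures, so the p-values given here reflect library-to-library spread alone, which could be technical.

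The protein eIF1A binds the small ribosomal subunit next to eIF1 and helps the preinitiation complex scan a messenger RNA for its start codon. After start codon recognition it works with eIF5B when the large subunit joins. In the mouse, the 2-cell stage is when the embryo's own genome is first transcribed at scale, and several multi-copy gene families, Eif1a-like genes among them, are transcribed at that stage.

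In GENCODE M21, on the GRCm38 assembly, all 6 Eif1a-like genes lie within 760 kb of chromosome 12. Gm8300 spans 87514316 to 87518266, Gm4027 spans 87618869 to 87622955 and BB287469 spans 87816577 to 87820676, all on the plus strand. Gm2016 spans 87874072 to 87877859 and Gm2022 spans 87895370 to 87895804, also on the plus strand, and Gm5662 spans 88270640 to 88274500 on the minus strand. Each is annotated as protein-coding with the whole coding sequence in 1 exon. All but Gm2022 have 2 exons, and the Gm2022 model is the coding sequence alone, with no UTR. Eif1ax lies on chromosome X from 159372178 to 159389928 and Eif1ad on chromosome 19 from 5366741 to 5371526 and both are on the plus strand.

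The coding sequences of the 6 Eif1a-like genes, of Eif1a and of Eif1ax are all 435 bases long. Among the 6, coding identity was 97.2% to 100% over 15 pairs, with 0 to 12 bases differing. Gm4027 and BB287469 had the same coding sequence, base for base. Identity to Eif1a was 93.6% to 94.9%, and identity to Eif1ax was 83.7% to 85.1%. By nucleotide sequence the 6 copies are therefore nearer to Eif1a than to Eif1ax. Coding bases 79 to 168, counted from 1 at the first base of the start codon, are shown because they hold many of the differences from Eif1ax. Capitals mark bases that differ from Eif1ax, and the sequences are from GENCODE M21 transcripts.
Eif1ax: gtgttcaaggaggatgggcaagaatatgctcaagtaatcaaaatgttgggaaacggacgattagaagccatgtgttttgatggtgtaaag
Gm4027: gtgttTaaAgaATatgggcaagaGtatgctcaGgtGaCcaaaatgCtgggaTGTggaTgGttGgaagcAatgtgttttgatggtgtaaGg
Gm2016: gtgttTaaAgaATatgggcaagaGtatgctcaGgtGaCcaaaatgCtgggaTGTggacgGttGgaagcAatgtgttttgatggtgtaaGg
Gm8300: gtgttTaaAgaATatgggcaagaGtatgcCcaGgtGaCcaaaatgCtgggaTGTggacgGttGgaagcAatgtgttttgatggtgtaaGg

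Over these 90 bases Gm4027 differed from Eif1ax at 17 positions, Gm2016 at 16 and Gm8300 at 17. BB287469 and Gm2022 had the same stretch as Gm4027, and Gm5662 the same as Gm2016. Such likeness limits how far reads can be assigned to single copies. Of all 150-base windows of each transcript (the read length), 97.0% were found in no other transcript of the annotation for Gm8300, 80.1% for Gm2022, 59.7% for Gm5662 and 56.3% for Gm2016. For Gm4027 the share was 11.8% and for BB287469 11.9%, because each shared 88% of its windows with the other. The split between Gm4027 and BB287469 is therefore uncertain, and their sum is given as well. Every window of the coding models of Eif1a and Eif1ax used here was unique. The expected counts of Eif1a were still not whole in all 3 control libraries, so some of its fragments were shared with other genes. Of the windows of Eif1ad, 11.6% were shared with Banf1, which is read from the opposite strand, and the library method does not mark strand.

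RefSeq's promoter table (GRCm38.p6) held Gm4027, BB287469, Eif1ax and Eif1ad of the 9 genes. The bases before the annotated starts of Gm4027 and BB287469 are shown because the reads hardly separate these copies, and their promoters are alike too. The Gm4027 stretch is chr12:87618659-87618868 and the BB287469 stretch is chr12:87816327-87816576, both on the plus strand. Capitals mark GGATTA, the core bound by paired-like homeobox factors.
Gm4027: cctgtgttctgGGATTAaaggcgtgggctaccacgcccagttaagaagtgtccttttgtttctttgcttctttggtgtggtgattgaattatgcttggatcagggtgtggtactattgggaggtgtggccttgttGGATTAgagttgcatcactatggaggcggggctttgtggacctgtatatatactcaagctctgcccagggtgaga
BB287469: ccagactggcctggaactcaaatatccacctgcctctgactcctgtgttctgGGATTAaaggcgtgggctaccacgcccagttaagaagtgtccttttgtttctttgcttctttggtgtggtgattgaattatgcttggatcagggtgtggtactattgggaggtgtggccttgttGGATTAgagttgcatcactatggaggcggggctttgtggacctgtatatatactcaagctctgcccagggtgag

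The 209 bases that align between these stretches were identical. Each held GGATTA at 2 places. Searched on both strands, GGATTA occurred in 7.06% of 32851 promoter windows of 250 bases before to 50 bases after a start. The Eif1ad window held 1 match and the Eif1ax window held none. The exact TATA box hexamer TATAAA, found in 13.62% of all windows, was in none of the 4 windows. Other forms of a TATA box were not searched, and both stretches shown hold tatatata near their right end. A repeat of the type bound by Dux, found in 0.03% of all windows, was also in none of the 4. Further Eif1a-like genes on chromosome 12, described below, had windows too. Of these, Gm21319 held 1 match to GGATTA, and Gm21936, Gm6803 and Gm10264 held none. TATAAA was in the windows of Gm6803 and Gm10264. These letter matches are descriptions of the sequence, and no binding was measured.

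**Figure D1:**
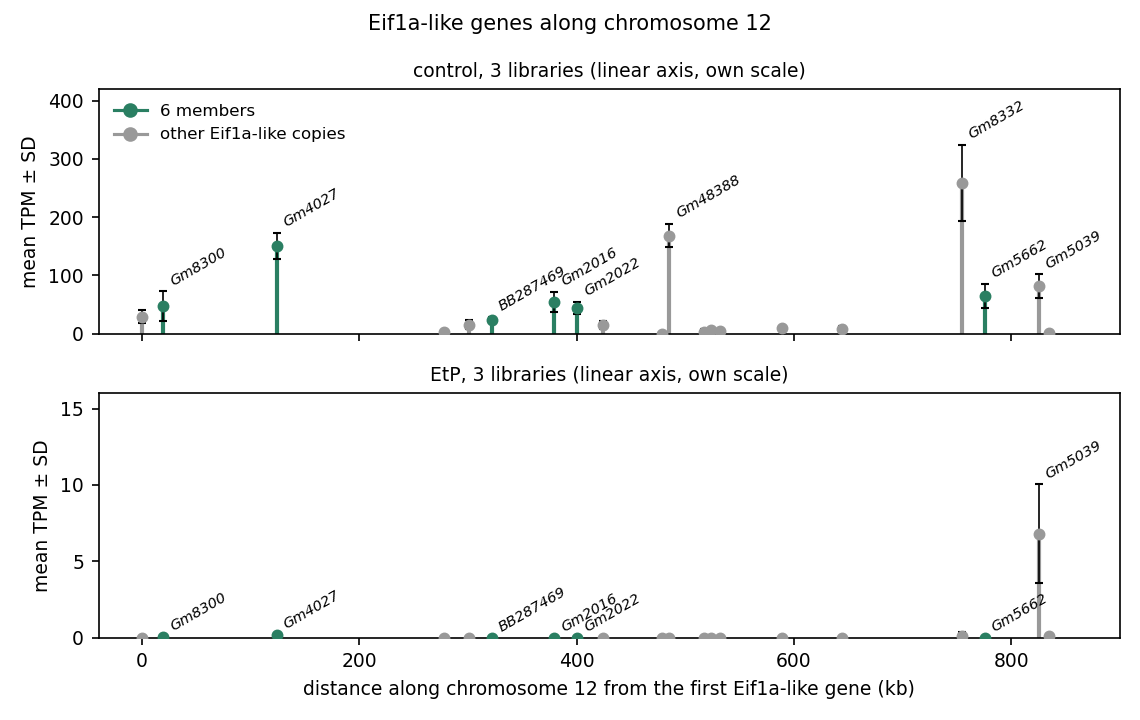
Mean TPM (transcripts scaled for length and depth) ± SD of each Eif1a-like gene on chromosome 12, for the 3 control libraries (upper panel) and the 3 EtP libraries (lower panel, own linear scale), against distance in kb from the first copy. The copies lie within 835 kb, Gm8332, Gm48388 and Gm4027 had the highest control means, and in EtP Gm5039 alone stands visibly above 0.

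Total expected counts per library ran from 11173295 to 14737152. The control tables held 25971 to 26103 genes with a count and those of EtP held 19321 to 19713. CPM values are counts scaled by library size, and the library sizes were first corrected for RNA composition by TMM. The scaled sizes were 1.193 to 1.379 times the totals in control and 0.737 to 0.832 times in EtP. Egg and early embryo markers, 11 of 12 found in the tables, summed to 12100 to 15000 TPM in control and 20800 to 21700 in EtP, and none was at 0. The 8 markers of the 2-cell stage summed to 430 to 508 TPM in control and 24.7 to 30.4 in EtP, where Tdpoz4 was at 0. The 10 cumulus cell markers summed to 14.6 to 25.7 against 7.66 to 9.87 TPM, and the 6 sperm markers to 21.4 to 32.7 against 5.1 to 7.04. Of the cumulus markers Ptx3 and Amh were at 0 in control, and Ptx3, Amh, Inha, Inhba, Foxl2 and Tnfaip6 in EtP. Of the sperm markers Tnp1 was at 0 in control, and Prm1 and Tnp1 in EtP. The 2-cell stage markers moved in the same direction as the Eif1a-like genes described next, and their part in that result was not tested.

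Summed over the 6 Eif1a-like genes, the control libraries held 6232.13, 5843.99 and 6035.28 expected counts and the EtP libraries 4.22, 3.02 and 5.16. In TPM, which adjusts for transcript length, the sum was 322.92, 337.74 and 488.26 in control against 0.24, 0.19 and 0.29 in EtP. Every control library was high and every EtP library was close to nothing. The mean per copy was 63.8 ± 15.2 TPM in control (SD, n = 3) and 0.04 ± 0.00833 in EtP. On the scaled count scale the sum was 358 ± 43.5 CPM in control and 0.389 ± 0.0493 in EtP (SD, n = 3), a 950-fold lower level. In bulk RNA of embryos, fewer expressing cells and less RNA per cell cannot be told apart.

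Gm4027 had the highest level of the 9 genes in all 3 control libraries. Its expected counts were 2990.98, 2587.61 and 2397.25 in control and 3.03, 2.79 and 3.91 in EtP. These are 150 ± 22.2 TPM in control and 0.19 ± 0.0265 TPM in EtP (SD, n = 3), and in scaled counts a 496-fold lower level. BB287469, with the same coding sequence, held 437.68, 562.61 and 297.39 expected counts in control. In EtP its values of 0.16, 0.23 and 0.24 were fractions of a fragment, and all rounded to 0. To set aside the uncertain split, the pair was summed, and it reached 182 ± 20.6 CPM in control against 0.328 ± 0.0185 in EtP. The ratio of their summed counts, 9274 to 10, was divided by the ratio of the groups' summed scaled library sizes. This gave a 573-fold lower level, with a 95% exact binomial interval of 311 to 1190 that covers counting error only. BB287469 took 13.9 ± 3.58% of the counts of the pair in control.

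Gm8300, the copy with the most distinct sequence of the 6 by unique windows, had the widest spread of the 6 between control libraries in TPM. Its expected counts were 762.6, 593.32 and 1055.9 in control and 1.03, 0 and 1.01 in EtP. In TPM the control libraries held 35.47, 30.06 and 75.93, so control 3 was more than 2 times as high as either of the others. Rounded counts were 2412 in control and 2 in EtP. Divided by the ratio of scaled sizes, their ratio was 745, with an exact binomial interval of 206 to 6150. The interval is wide because EtP held so few counts. Without EtP 2, the library at 0, the log2 ratio in scaled counts was -9.04 in place of -9.67. Every EtP library was far below every control library.

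Gm2016, Gm5662 and Gm2022 were listed at 0 in all 3 EtP libraries. Gm2016 held 810.09, 899.12 and 951.49 expected counts in control, and Gm5662 held 1102.86, 1049.36 and 1202.69. Gm2022 held 127.92, 151.97 and 130.56. Because a count of 0 is taken to allow up to 3 counts over the group, the levels in EtP were at least 552-fold lower for Gm2016, at least 699-fold for Gm5662 and at least 84.7-fold for Gm2022. On the same floor BB287469 came out 264-fold lower. This is no firm bound, since its split from Gm4027, which held 10 rounded counts in EtP, is uncertain. The values on this floor depend on the summed depth of the EtP libraries and were over 1.5 times smaller without EtP 1 or EtP 3. On the log2 scale they were then -8.49 and -8.37 for Gm2016 (-9.11 with all libraries), -8.83 and -8.71 for Gm5662 (-9.45), -5.79 and -5.67 for Gm2022 (-6.41), and -7.43 and -7.31 for BB287469 (-8.04). The smaller bound for Gm2022 goes with its lower counts. Over all genes tested, 1.64% had no rounded count in any EtP library.

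Per length the 6 copies stood closer to each other than by counts. Gm2022 averaged 8.06 ± 0.4 CPM but 43.9 ± 10.7 TPM, since the tables give it an effective length of 288.08 to 315.66 bases. For Gm4027 the effective length was 1701.71 to 1730.14 bases. In control TPM the order was Gm4027, Gm5662 (64.9 ± 20.2), Gm2016 (53.9 ± 17), Eif1ax (50.1 ± 11), Gm8300 (47.2 ± 25.1), Gm2022, BB287469 (23.7 ± 4.49), Eif1ad (19.3 ± 9.51) and Eif1a (4.66 ± 0.976). The ranges of Gm5662, Gm2016, Eif1ax, Gm8300 and Gm2022 overlapped, so their order is not resolved. BB287469 lay below all 3 values of every other copy and overlapped Eif1ad. The model of Gm2022 has no UTR, so a read from beyond the coding sequence cannot count for it, and its TPM rests on a short model. Effective length also varied between libraries, from 1116.07 to 2204.42 bases for Eif1ax and from 602.77 to 1962.73 for Eif1a. The place of Eif1ax in this order is that of its whole row, which may include a short retained-intron model, described below.

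**Figure D2:**
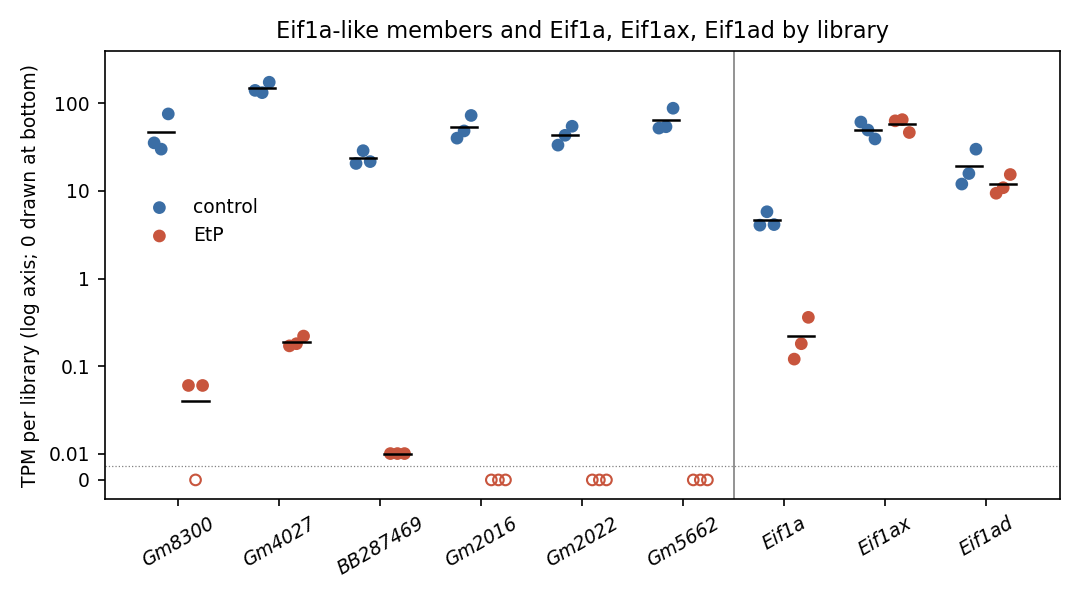
TPM of the 9 genes in each library on a logarithmic axis, with values of 0 drawn as open circles at the bottom and black lines at the mean of each group. For the 6 Eif1a-like genes and Eif1a the groups lie far apart, and for Eif1ax and Eif1ad they overlap.

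Eif1a, the gene whose coding sequence the copies resemble most among the 3 established genes, lies on chromosome 18 and had low levels in both groups. Its expected counts were 98.31, 118.07 and 58.06 in control and 2, 1 and 7 in EtP. The control counts were not whole, so some fragments were shared with other genes. The effect of this on the ratio was not tested. In TPM it held 4.07, 5.79 and 4.13 in control and 0.12, 0.18 and 0.36 in EtP, so the groups did not overlap. The ratio of its counts, 274 to 10, gave a 16.9-fold lower level once divided by the ratio of scaled sizes. The exact binomial interval was 9.06 to 35.7. Of the 10 EtP counts, 7 came from EtP 3, and without that library the log2 ratio in scaled counts was -5.09 in place of -4.17. In every control library Eif1a lay below all of the other 8 genes, and in EtP its values overlapped those of Gm4027.

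Eif1ax, the X-linked gene that encodes the same factor, had overlapping levels in the 2 groups. Its expected counts were 1563, 977 and 695 in control and 748, 670 and 677 in EtP. In TPM these were 61.34, 49.68 and 39.3 against 63.31, 65.33 and 46.56. On the scaled count scale they were 63.5 ± 26.4 CPM in control and 67.4 ± 9.89 in EtP (SD, n = 3), and the log2 ratio of EtP over control in scaled counts was 0.09. Eif1ad, which encodes a nuclear protein with an eIF1A-type domain, also overlapped, with 12, 15.82 and 30.04 TPM in control and 9.42, 10.9 and 15.42 in EtP. Its log2 ratio was 0.04 in scaled counts and -0.69 in TPM plus a pseudocount of 0.1. These ratios depend on the scaling: with library size alone they were -0.63 for Eif1ax and -0.71 for Eif1ad, and the median of all tested genes moved from -0.19 to -0.92.

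For the 6 copies and Eif1a, all 3 EtP libraries lay below all 3 control libraries in CPM. Of the 14373 genes tested, 27.9% had this pattern in CPM and 50.4% in TPM. The 7 genes were chosen on this contrast, so nothing is read from that count. All 9 genes passed the filter on low counts, the 6 copies and Eif1a through the control libraries alone.

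The makeup of the eIF1A transcripts differed between the groups. Counting Eif1a, Eif1ax and the 6 copies, the 8 genes summed to 438 ± 81.4 TPM in control and 58.9 ± 10.1 in EtP. The 6 copies made up 83.16%, 85.89% and 91.83% of this sum in control and 0.38%, 0.29% and 0.61% in EtP. Eif1ax took 15.8%, 12.63% and 7.39% in control and 99.43%, 99.44% and 98.62% in EtP. Over these 8 genes, most TPM thus came from the 6 copies in control and from the Eif1ax row in EtP. The TPM of that whole row overlapped between groups. Much of it may come from a short retained-intron model, described below. By the row's length, that model made up 59.5% to 69.5% of Eif1ax transcripts in control and 76.7% to 82.8% in EtP. The TPM of the coding model alone was not computed. With the other Eif1a-like genes of the tables included, Eif1a-like genes took 93.63%, 93.46% and 96.51% in control and 5.81%, 10.76% and 17.63% in EtP. These other genes averaged 602 TPM in control, of which Gm8332 held 259 and Gm48388, a pseudogene, 168, both on short models. In scaled counts they held 156 CPM against 358 for the 6 copies. Of their 7.04 TPM in EtP, Gm5039 held 6.81. Over the 8 genes, by expected counts in place of TPM, the share of the 6 copies was 84.0 ± 4.98% in control and 0.587 ± 0.152% in EtP. The sum of Eif1a, Eif1ax and Eif1ad was 74.1 ± 3.1 TPM in control and 70.5 ± 7.32 in EtP.

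**Figure D3:**
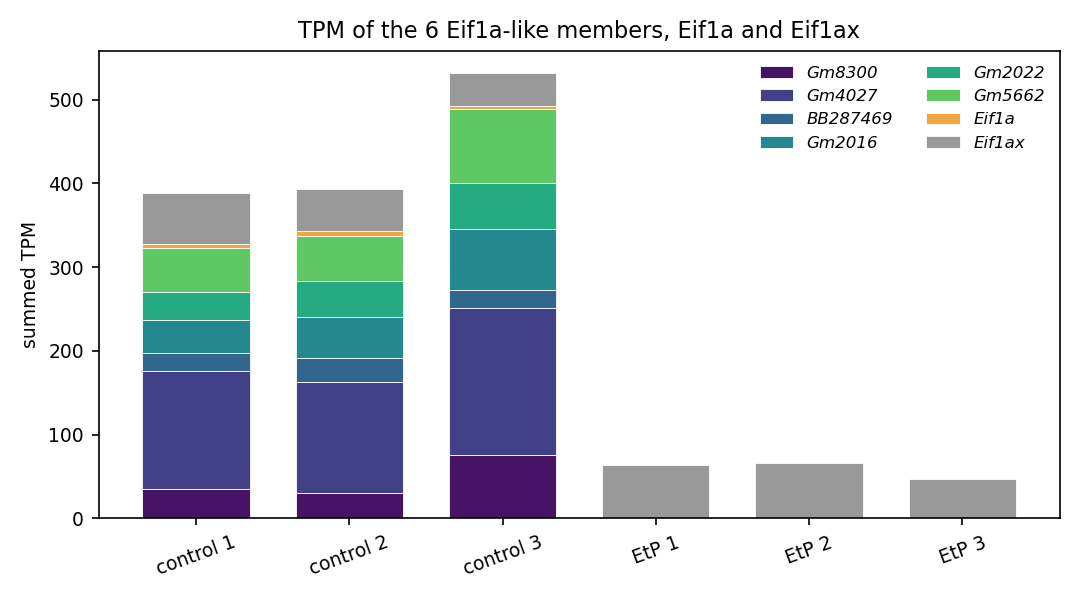
Summed TPM of the 6 Eif1a-like genes, Eif1a and Eif1ax in each library, stacked by gene from 0. The control columns reach 388.33, 393.21 and 531.69 TPM and are mostly the copies. The EtP columns reach 63.67, 65.7 and 47.21 TPM and are almost wholly Eif1ax, counted over all its transcript models.

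The Eif1ax row also carried a length that the authors' counting weighted by transcript model, which differed between libraries. GENCODE M21 has a coding model of 5172 bases in 7 exons and a retained-intron model of 416 bases in 2 exons, which shares 322 bases with exons of the coding one. If these are the only models behind the row, its length gives the share of the short model, a measure chosen after seeing the data. The short model made up 62.6%, 69.5% and 59.5% of Eif1ax transcripts in control and 82.8%, 82.6% and 76.7% in EtP. The groups did not overlap, and the difference was 16.8 percentage points, with a two-sided exact permutation p of 0.1, the smallest that 3 against 3 can give. Adjusted over the 5 measures taken from this length, which are not separate tests, the permutation p was 0.125. The CPM assigned to the coding model was 85.5, 45.6 and 41.7 in control and 56.3, 58.1 and 47.7 in EtP, and these overlapped. Its TPM was not computed, so the overlap is shown for CPM only. The short model took only 9.33 ± 2.15% of the fragments in control and 19.5 ± 3.93% in EtP, and 64.8% of its 150-base windows lie in the coding model too.

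**Figure D4:**
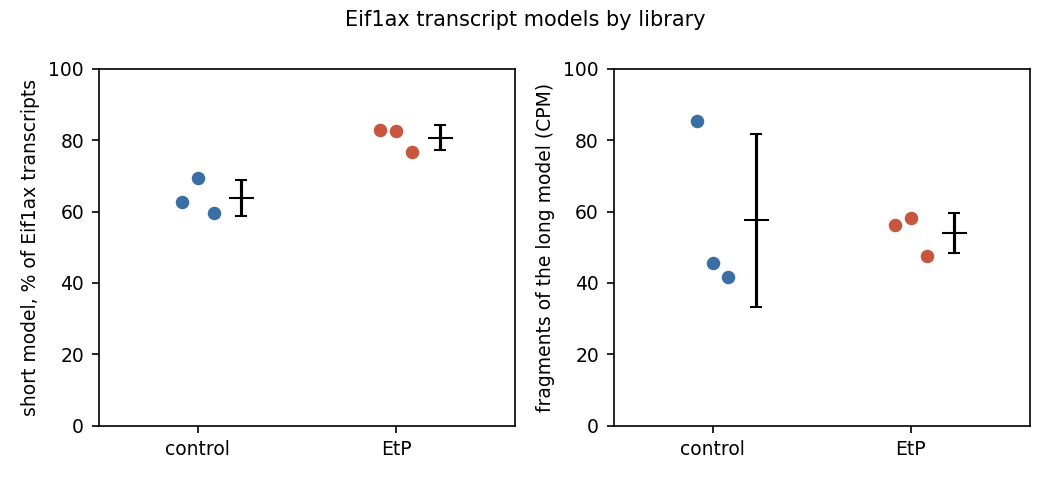
Share of the short Eif1ax model among transcripts, in percent (left), and CPM assigned to the long coding model (right), with 1 point per library and bars at the mean ± SD of each group. The share is higher in all 3 EtP libraries (76.7% to 82.8%) than in all 3 control libraries (59.5% to 69.5%). The CPM of the coding model overlaps between groups, and its TPM was not computed.

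The tables held 15 other genes resembling Eif1a by sequence, 14 of them on chromosome 12. For 6 of them every 150-base window is unique, while others share windows with the 6 copies, such as Gm8332 with Gm2016 and Gm2075 with BB287469. All 10 that passed the filter were lower in EtP by edgeR's quasi-likelihood test, against 18.1% of all genes tested. All but Gm5039 of these passed through the control libraries alone, with 0 or 1 rounded count in EtP, so the filter largely fixed this count and nothing is read from it. Gm13368, the copy on chromosome 2, and Gm48389 were listed at 0 in every library.

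Gm8332 had the highest control TPM of these, at 252.38, 197.83 and 327.96, against 0, 0.39 and 0 in EtP. Only 9.4% of its windows are unique, and 53.8% are shared with Gm2016. Its count ratio, 2441 to 1, was 1510 once divided by the ratio of scaled sizes. The exact binomial interval was 270 to 59600. Gm48388, a pseudogene model of 213 bases, held 168 ± 19.7 TPM in control and no count in EtP. Gm5788 and Gm21936 also had no count in EtP and were at least 56.5-fold and at least 31.8-fold lower.

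Gm5039, on the minus strand of chromosome 12 from 88320122 to 88324026, kept counts in EtP. Its expected counts were 1688.71, 1127.31 and 1134.76 in control and 61.77, 115.87 and 175.84 in EtP. In TPM these were 92.74, 58.15 and 93.35 against 3.36, 7.32 and 9.75. It was lower in all 3 EtP libraries by a log2 fold change of -2.81 ± 0.35 (SE), with an edgeR adjusted p of 0.000276. Of its windows, 99.0% are in no other transcript. It held 354 of the 356 rounded counts that the 15 other copies had in EtP.

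Partner factors of eIF1A in the preinitiation complex moved in both directions. This list of 22 genes (eIF1, eIF2, eIF3, eIF5 and eIF5B components) was drawn up from textbook roles with results of these data known. By edgeR's quasi-likelihood test 7 rose (31.8%) and 2 fell (9.09%), against 12.5% and 18.1% of the 14373 genes tested, so 30.6% of all were called in either direction. The median log2 fold change was 0.34 over the list and -0.19 over all genes tested. The counts depend on single libraries and on scaling: 4 genes rose without control 2, without EtP 1 or without EtP 2, and with library size alone 3 rose and 8 fell, while over all genes 545 rose and 7617 fell.

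Eif3c, a core subunit of the eIF3 scaffold, held 20.7, 16.6 and 15.8 CPM in control and 64.6, 72.3 and 68.3 in EtP. Its rise on the log2 scale was 1.95 with a standard error of 0.22, at an adjusted p of 0.000146 in edgeR. Eif3e, another eIF3 subunit, held 52.2, 26.4 and 22.1 CPM in control and 155, 135 and 138 in EtP, a change of 2.09 ± 0.32 (edgeR adjusted p = 0.0009). For both genes all 3 EtP libraries were above all 3 control libraries, a pattern seen in 18.9% of the genes tested.

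Eif2s2, the beta subunit of eIF2, which brings the initiator tRNA, held 277, 136 and 137 CPM in control and 714, 928 and 599 in EtP. Its log2 fold change was 2.03 ± 0.32 (edgeR adjusted p = 0.00103). Eif5b, the factor that joins the subunits, held 102, 84.6 and 75.8 CPM in control and 184, 250 and 169 in EtP, a change of 1.2 ± 0.23 (edgeR adjusted p = 0.00331). Eif5b was not called with library size alone, where its adjusted p was 0.084 in edgeR. The groups did not overlap for either gene.

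The 2 genes that fell were both forms of the eIF2 gamma subunit. Eif2s3y, the Y-linked form, was low in control at 0.6, 0.635 and 1.04 CPM, had no count in EtP and was at least 7.95-fold lower (edgeR adjusted p = 0.00294). It passed the filter on low counts through the control libraries alone. Eif2s3x, the X-linked form, held 89.8, 95.3 and 97.3 CPM in control and 60.6, 54.3 and 67.2 in EtP. Its log2 fold change was -0.63 with an edgeR adjusted p of 0.0351, and it missed the threshold in 8 of 12 alternatives, where its adjusted p was 0.0618 to 0.163.

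**Figure D5:**
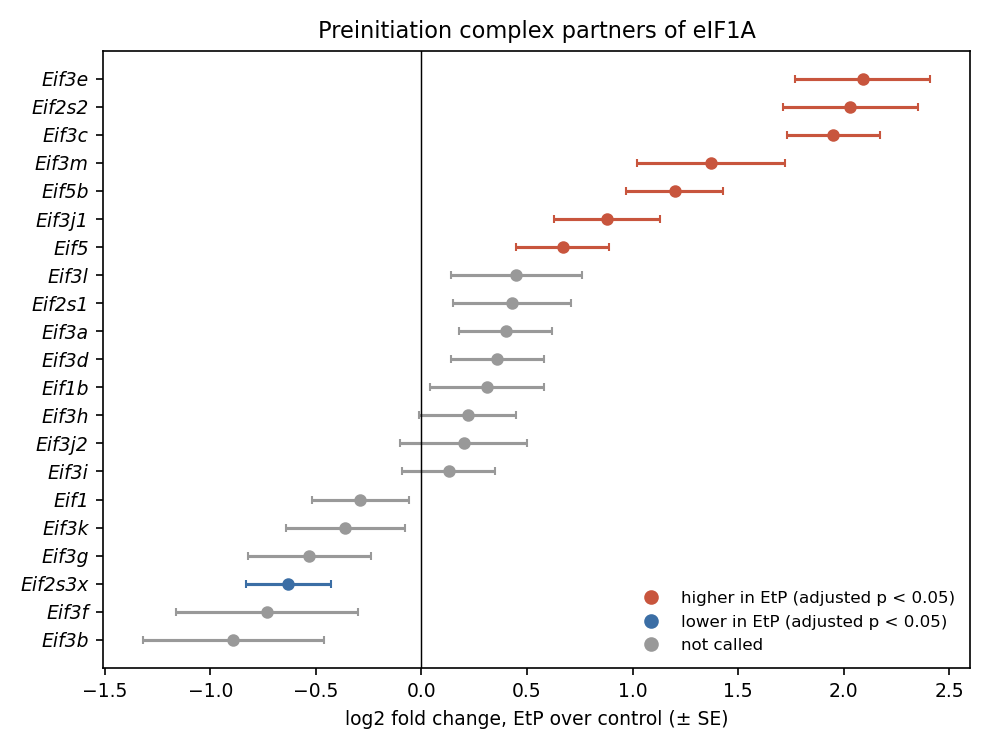
Log2 fold change, EtP over control, with standard error, for 21 of the 22 partner genes, with called genes marked. Eif2s3y is left out because it had no count in EtP, and the 3 largest increases are Eif3e, Eif2s2 and Eif3c.

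Outside the family, the 5 genes whose 6 values of log2(TPM + 0.1) lay nearest to those of Gm4027 by Euclidean distance were also predicted genes. Gm8994 on chromosome 6 was the nearest, at a distance of 0.79, with 104.95, 100.09 and 151.64 TPM in control and 0.22, 0.19 and 0.14 in EtP. Gm20765 and Gm21312, neighbours on chromosome 10, followed at 1.53 with the same values in every library, so they are not separate measurements. Gm7942 on chromosome 5 was at 1.78 and Gm21304 on chromosome 10 at 1.93. All 5 were above 90 TPM in every control library and below 1 TPM in every EtP library.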

How the data were processed

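Libraries of 2-cell embryo RNA were made with Smart-seq2 (oligo-dT priming and PCR of full-length cDNA, without molecular identifiers) for paired-end sequencing, per the labels' protocols. The submitters' processing notes name cutadapt 1.16, STAR and the mm10 build, while the counting program is not given in the sources used here. Per the file headers, the authors deposited an expected count, a TPM and an FPKM value per gene, with lengths. The deposited expected count shares ambiguous fragments between genes, and 10.6% to 16% of rows were not whole within 0.005. The deposited TPM values are scaled for length and depth. The deposited FPKM values were used as an alternative only.

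Expected counts were rounded and tested with edgeR 4.0.16 in R 4.3.3 (filterByExpr at its defaults, TMM, robust quasi-likelihood fit, group as the only term, Benjamini-Hochberg adjustment at 0.05). The edgeR step was tested on simulated data. CPM was computed on TMM-scaled sizes. Values are given as mean ± SD of 3 libraries. Where a group had no count, 3 counts over the group were assumed. Ratios of pooled rounded counts were divided by the ratio of the groups' summed TMM-scaled sizes. Their intervals are exact binomial at 95%. No 2 libraries agreed within counting noise.

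The genes and lists were chosen with earlier results of these data known. Named genes were all 9 genes, up to 4 partner genes called with the smallest p in each direction, the 5 other copies with the highest control TPM and the 5 genes nearest to Gm4027. Other copies were to be found by protein identity. No protein table was used here, so GENCODE M21 transcripts were aligned to the Eif1ax coding sequence with blastn 2.17.0, at 50% identity or more over at least 80% of the shorter sequence. Alternatives were other scalings, no filter, DESeq2 1.42.0, a replicate block, TPM and FPKM, and leaving out each library. Figures were drawn with matplotlib 3.10.9.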

Additional observations from a re-analysis of the deposited data

How the results depend on the processing

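Depth limits the EtP side of every ratio of the copies, since their sum rests on 12 rounded counts over 3 EtP libraries. With library size alone, 545 of all tested genes rose and 7617 fell, 3 partner genes rose and 8 fell, the log2 ratio of the summed copies was -10.62 (-9.89 with TMM), and that of Eif1a, Eif1ax and Eif1ad together was -0.73 (-0.01 with TMM). In TPM plus 0.1 the summed copies gave -10.14. With RLE scaling, without a filter and with DESeq2, 1 partner gene fell in place of 2. Leaving out each library gave 1096 to 2637 genes that rose and 1659 to 2887 that fell, 4 to 9 partner genes that rose and 1 to 2 that fell, 10 to 11 other copies that fell, -9.93 to -9.76 for the summed copies and -0.05 to 0.3 for the established genes. The fewest genes rose and fell without EtP 1. The share of the copies was then 84.5% to 88.9% in control and 0.335% to 0.495% in EtP, and the difference in the short Eif1ax model was 14.6 to 19.6 percentage points, or 10.2 by fragments. The cause of these shifts was not tested. For none of the 6 copies or Eif1a did an alternative change the direction.

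The replicate numbers were not shown to pair the libraries, as the deviations of same-numbered libraries correlated at 0.127, 0.003 and 0.273. With the number as a replicate block 2295 genes rose and 3022 fell, with 7 and 3 partner genes and 10 other copies lower.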
